A study of Mus musculus with 2 samples.

Results

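Pluripotency and early germ cell genes were followed in RNA of whole mouse embryos, taken 8.5 days after mating (8.5 dpc), that carried both copies of chromosome 18 from 1 parent. The genes were chosen by name: Pou5f1, Nanog, Sall4, Utf1, Lin28a, Lin28b, Prdm1, Dppa3, Ifitm1 and Ifitm3, 10 of the 18193 genes named on the Affymetrix mouse array. Every probe set annotated to exactly 1 of them was taken, 14 of 34945 such probe sets. One array held RNA from embryos with the maternally derived disomy of the whole chromosome (matUPD18) and 1 array RNA from embryos with the paternally derived disomy (patUPD18), with age and tissue matched. Neither group was a normal control with 1 chromosome 18 from each parent, and a difference could lie in either group. The strain background and the number of embryos in each RNA are not given in these sources. None of the 10 genes lies on chromosome 18. They lie on chromosomes 2 (Sall4), 4 (Lin28a), 6 (Nanog and Dppa3), 7 (Utf1, Ifitm1 and Ifitm3), 10 (Lin28b and Prdm1) and 17 (Pou5f1), so each genotype has 1 maternal and 1 paternal copy of every member.

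POU5F1 (OCT4) and NANOG are transcription factors that hold the early epiblast in the pluripotent state. POU5F1 binds DNA together with SOX2 at paired sites. As germ layers form, the pluripotent state is shut down in most cells. Primordial germ cells, set aside at the posterior end of the embryo by BMP signals, keep or regain several of the same genes. PRDM1 (BLIMP1) is the repressor that starts germ cell fate, DPPA3 (Stella) marks its completion, and the membrane proteins IFITM1 and IFITM3 (Fragilis) are early surface markers of the precursors. LIN28A and LIN28B block maturation of the let-7 microRNAs and, like the zinc finger factor SALL4, are used by many embryonic cells outside the germ line. In RNA from a whole embryo, fewer cells of a type and less RNA per cell cannot be told apart.

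The sequences just before the start sites of 4 members are shown from RefSeq (GRCm38.p6), read 5′ to 3′ on the gene's strand over 250 bases. RefSeq windows matched 8 of the 10 genes, and the first listed window of each is used. Nanog and Pou5f1 are shown because both factors read near the bottom of both arrays. Ifitm1 and Ifitm3 are shown because these neighbouring genes read in opposite directions in the deposited signals. Capitals mark 3 motifs searched on both strands: the SOX-OCT paired element (CATTGT, any 1 base, ATGCAAA), the GC box (GGGCGG) and the CCAAT box (CCAAT). No marked motif overlaps another in these windows.
Nanog, chr6:122707239-122707488, plus strand: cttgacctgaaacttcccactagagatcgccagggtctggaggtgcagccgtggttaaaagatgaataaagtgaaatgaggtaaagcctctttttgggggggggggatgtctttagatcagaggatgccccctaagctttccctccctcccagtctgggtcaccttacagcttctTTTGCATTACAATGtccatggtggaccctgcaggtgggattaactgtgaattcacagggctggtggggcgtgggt
Pou5f1, chr17:35505782-35506031, plus strand: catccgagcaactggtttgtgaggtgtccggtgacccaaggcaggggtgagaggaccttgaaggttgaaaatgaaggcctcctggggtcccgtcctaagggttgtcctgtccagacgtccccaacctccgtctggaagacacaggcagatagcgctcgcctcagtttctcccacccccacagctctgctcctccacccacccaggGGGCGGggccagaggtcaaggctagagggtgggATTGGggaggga
Ifitm1, chr7:140967826-140968075, plus strand: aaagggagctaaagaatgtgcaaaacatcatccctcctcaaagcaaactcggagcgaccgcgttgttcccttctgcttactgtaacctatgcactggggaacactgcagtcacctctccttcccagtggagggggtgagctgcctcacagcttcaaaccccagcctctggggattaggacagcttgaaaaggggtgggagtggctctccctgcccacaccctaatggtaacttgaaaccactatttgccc
Ifitm3, chr7:141010745-141010994, minus strand: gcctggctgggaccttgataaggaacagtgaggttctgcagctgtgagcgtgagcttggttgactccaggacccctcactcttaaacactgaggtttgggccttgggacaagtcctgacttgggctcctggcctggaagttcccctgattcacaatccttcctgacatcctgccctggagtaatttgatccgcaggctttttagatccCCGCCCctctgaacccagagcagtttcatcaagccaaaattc
As this exact string, the SOX-OCT element was found in 2 of 32851 RefSeq windows of this length (0.00609%). Both are overlapping windows of Nanog. Only 1 base of the string was left free, so sites that differ at any other base were not counted. The share is therefore not that of all SOX-OCT sites. The Pou5f1 window held 1 GC box, present in 32.7% of all windows, and 1 CCAAT box, present in 33.8%. The Ifitm3 window held 1 GC box, and none of the 3 motifs was found in the Ifitm1 window. These are letter matches only, and factor binding was not measured.

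The deposited values are signal intensities, 1 per probe set and array. A probe set counted as measurable if its higher signal was at or above the 60th percentile of that array (190.1 for matUPD18, 184.9 for patUPD18). Signals under the 40th percentile (84.2 and 82.5) were raised to it before log2 ratios of matUPD18 over patUPD18 were taken. By this rule 6 of the 14 probe sets were measurable, covering 5 genes: Sall4, Lin28a, Prdm1, Ifitm1 and Ifitm3. Pou5f1, Nanog, Utf1, Lin28b and Dppa3 had no measurable probe set. Of all probe sets of 1 gene 47.8% were measurable, and of all genes 57.6% had a measurable brightest probe set, so the members' shares are near the background. With 1 array per genotype there was no test and no spread between embryos, and the single arrays limit the precision of every value. As a guide to disagreement between probe sets, the log2 ratios of probe sets that read 1 gene scattered with a standard deviation of 0.44. This was pooled over 10206 measurable probe sets from 4003 genes. It does not measure spread between embryos, and technical error was not separated in it from differences between transcripts of a gene.

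Among the measurable probe sets, none of the 6 was 2-fold apart between the arrays. The background shares were 3.27% of 16696 measurable probe sets at least 2-fold higher in matUPD18 and 1.95% at least 2-fold higher in patUPD18, and a count of 0 among 6 is near those shares. In the deposited signals, Sall4, Lin28a and Ifitm3 read higher in patUPD18, Ifitm1 read higher in matUPD18, and Prdm1 read alike. At 1.5-fold, 1 of the 6, Lin28a, was higher in patUPD18 (background 8.76%) and none was higher in matUPD18 (background 11.4%). The median log2 ratio of the 6 was -0.36, beside -0.02 for all measurable probe sets of 1 gene.

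**Figure D1:**
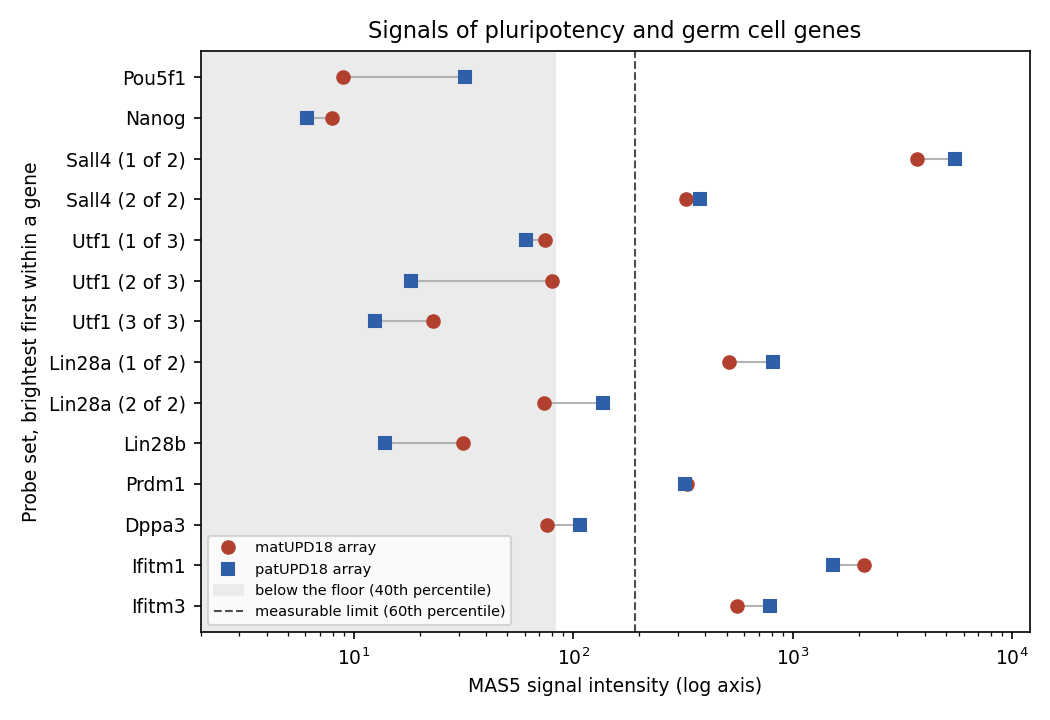
Deposited MAS5 signal (log axis) of the 14 member probe sets, 1 row each, on the matUPD18 array (circles) and the patUPD18 array (squares). The shaded area lies below the 40th percentile floor and the dashed line is the 60th percentile limit; Sall4, Lin28a (brighter probe set), Prdm1, Ifitm1 and Ifitm3 lie above the limit, and Pou5f1, Nanog, Utf1 and Lin28b lie in the shaded area on both arrays.

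The core pair of pluripotency factors read near the bottom of both arrays. The single Pou5f1 probe set (1417945_at) had a signal of 8.87 in matUPD18 and 32.2 in patUPD18, percentiles 7.90 and 22.2 of all probe sets on their arrays. The single Nanog probe set (1429388_at) had signals of 7.96 and 6.09, percentiles 6.97 and 5.24. Neither reached the floor on either array, so no fold is given and the arrays cannot be ordered. Utf1, a chromatin protein gene of undifferentiated cells, was under the floor with all 3 of its probe sets. Its brightest, 1416899_at, read 73.9 in matUPD18 and 60.8 in patUPD18. The next, 1458333_x_at, whose ending marks probes that may match other transcripts, read 80.1 and 18.2, and 1443786_at read 23.0 and 12.5. All 3 were nominally higher in matUPD18, within the range where signals cannot be ordered.

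Sall4, a zinc finger factor that works with the NuRD deacetylase complex and is needed for germ cell and limb development, was well above the limit on both arrays. Its brighter probe set (1424152_at) read 3669 in matUPD18 and 5487 in patUPD18, percentiles 95.2 and 96.7 of the arrays. It was 1.495-fold higher in patUPD18, a log2 ratio of -0.58. The dimmer one (1424153_s_at) read 324.9 and 377.5, 1.16-fold higher in patUPD18, a log2 ratio of -0.22. Both probe sets of Sall4 had the same direction under the deposited scaling. Measurable probe sets were placed in 4 equal bins by mean signal. In the brightest bin 5% had log2 ratios below -0.65 and 25% below -0.33, and the brighter Sall4 probe set lay at percentile 7.14. The dimmer one lay at percentile 29.2 of its own bin.

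Lin28a, whose protein binds the let-7 precursor and recruits the uridylating enzymes that lead to its decay, showed the widest gap of the measurable members under the deposited scaling. Its brighter probe set (1437752_at) read 512.6 in matUPD18 and 815.1 in patUPD18, 1.59-fold higher in patUPD18, with a log2 ratio of -0.67. The second (1421749_at) read 73.1 in matUPD18, under the floor, and 136.5 in patUPD18, above the floor but not measurable. With the lower value raised to the floor it was 1.62-fold higher in patUPD18 under that scaling, a fold that depends on the floor. Both probe sets of Lin28a thus had lower deposited signals on the matUPD18 array. In its bin of like signal, the brighter one lay at percentile 4.65, where 5% of log2 ratios were below -0.65. The paralog Lin28b (1430803_at) read 31.3 and 13.9, under the floor on both arrays. Of the pair, only Lin28a had a measurable probe set.

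Of the germ cell regulators, Prdm1 (1420425_at) was measurable and read 328.2 in matUPD18 and 322.4 in patUPD18. The log2 ratio was 0.03, at percentile 51.0 of its bin, the middle of probe sets with like signal. PRDM1 is also used outside the germ line, for example in endoderm and limb, so this level in a whole embryo cannot be assigned to germ cells. Dppa3 (1424295_at) read 75.5 in matUPD18, under the floor, and 107.1 in patUPD18, above the floor but below the measurable limit. With the lower value raised to the floor, Dppa3 was 1.27-fold higher in patUPD18, a fold that depends on the floor. A floor at the 60th percentile turned the direction (log2 ratio 0.04), and so did scaling to the hybridisation controls (log2 ratio 0.22).

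The interferon-induced transmembrane genes Ifitm1 and Ifitm3 stand next to each other on chromosome 7, between Ifitm2 and Ifitm6 in the order of protein-coding genes. Ifitm1 (1424254_at) read 2118 in matUPD18 and 1526 in patUPD18, 1.39-fold higher in matUPD18 with a log2 ratio of 0.47. Ifitm3 (1423754_at) read 557.1 and 790.3, 1.42-fold higher in patUPD18 with a log2 ratio of -0.50. The neighbours therefore read in opposite directions under the deposited scaling. With the arrays scaled to the hybridisation controls, both read higher in matUPD18 (log2 ratios 1.04 and 0.06). Under the deposited scaling Ifitm1 and Ifitm3 lay at percentiles 89.4 and 9.56 in their bins by signal. Both places were inside the central 90% of probe sets with like signal. Ifitm2, on the far side of Ifitm1, read 1667 and 1897, a log2 ratio of -0.19. Members of this family are similar in sequence, so how well these probe sets separate them was not tested. Of 5 other family genes 2 were measurable, both within 2-fold. Ifitm7 on chromosome 16 read 236.7 and 184.8 (log2 ratio 0.36) and was measurable only through matUPD18. Ifitm5, Ifitm6 and Ifitm10, named after their values were seen, were not measurable.

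**Figure D2:**
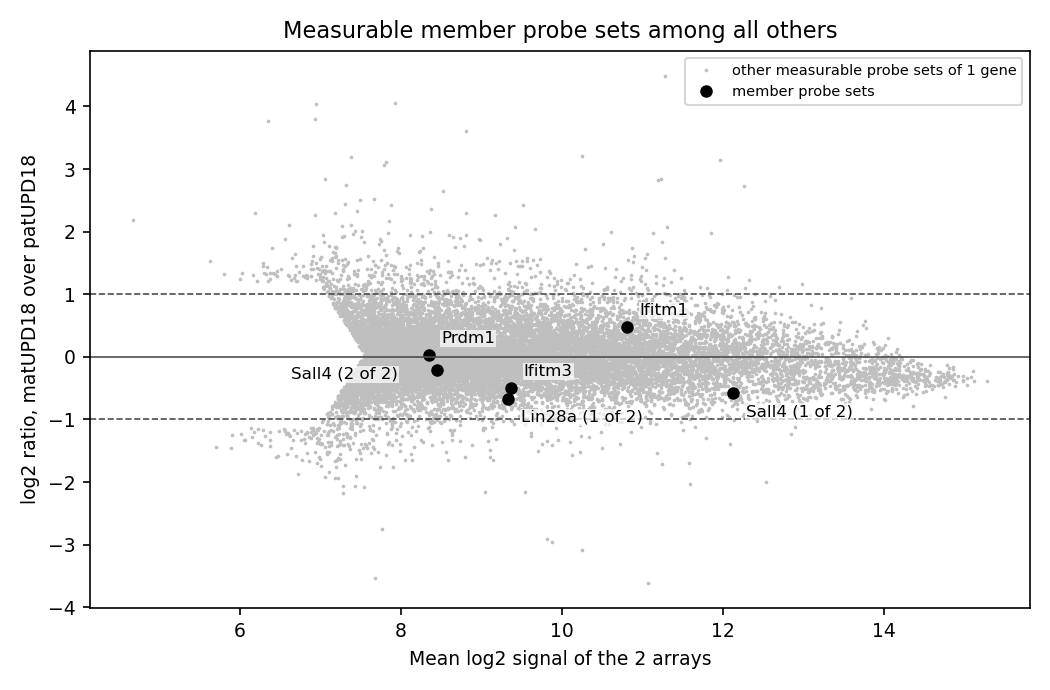
Log2 ratio of matUPD18 over patUPD18 against mean log2 signal for the 16696 measurable probe sets of 1 gene (grey points), with the 6 member probe sets as labelled black points and dashed lines at 2-fold. Each labelled point lies between the lines, from -0.67 (Lin28a) to 0.47 (Ifitm1), within the cloud of other probe sets.

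A low reading here did not show that a transcript was absent. Of the 14 member probe sets, 6 lay under the floor on both arrays. Of these 2 differed at least 2-fold towards matUPD18 (Lin28b and 1458333_x_at of Utf1) and 1 towards patUPD18 (Pou5f1) in the deposited signals. Such gaps were common at this level. Of 10943 probe sets under the floor on both arrays, 18.1% were at least 2-fold higher in matUPD18 and 17.9% at least 2-fold higher in patUPD18. Other genes known from embryos of this age read equally low. Fgf8, a growth factor of the tail bud and brain, read 3.78 and 3.38, and the endothelial receptor gene Tie1 read 2.75 and 2.92. In the same RNA 6 of 8 endothelial markers were measurable, among them Kdr (1426 and 910.0) and Cdh5 (321.5 and 279.7). Fgf8 and Tie1 were named after their values were seen.

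The genes that work with the members were read as 8 lists, each gene by its brightest probe set. The background over all 10484 measurable genes was 2.70% past 2-fold towards matUPD18 and 1.78% towards patUPD18, with a median log2 ratio of -0.04. Of 26 other core and naive pluripotency genes on the array 13 were measurable, with 1 at least 2-fold higher in each direction and 11 within 2-fold. Tet1, the enzyme that oxidises 5-methylcytosine, read 896.5 in matUPD18 and 342.7 in patUPD18, 2.62-fold higher in matUPD18. Both of its further measurable probe sets pointed the same way (log2 ratios 0.30 and 0.87). Fgf4, the growth factor that the epiblast sends to neighbouring tissue, read 62.0 and 256.1. With the lower value raised to the floor it was 3.04-fold higher in patUPD18. Its value rests on 1 probe set, with the matUPD18 signal under the floor, so the fold depends on the floor. Sox2, the partner of POU5F1 and also a neural tube gene, was bright on both arrays (5833 and 5337) and nearly equal, a log2 ratio of 0.13. The median over the 13 genes was 0.45, and 10 of them read higher in matUPD18, beside 4832 of all 10484 measurable genes. For Stat3 and Il6st (log2 ratios 0.78 and -0.12) a second measurable probe set pointed the other way (-0.24 and 0.91). Of the 13, 3 were measurable only through matUPD18 and 1 only through patUPD18. The naive state genes Zfp42 (44.1 and 20.6) and Tfcp2l1 (70.5 and 5.89) were under the floor on both arrays, as were Dppa2 and Dppa4. Sox2, Stat3, Il6st, Zfp42, Tfcp2l1, Dppa2 and Dppa4 were named after their values were seen.

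Of 16 primed epiblast and primitive streak genes 5 were measurable, beside 57.6% of all genes, and none was 2-fold apart (background 2.70% and 1.78%). Their median log2 ratio was 0.51. Cdh1, the epithelial cadherin gene, read 592.9 and 318.3 and was 1.86-fold higher in matUPD18. Pou3f1 (OCT6), a factor of the late epiblast and of neural cells, was 1.29-fold higher in patUPD18. The nodal pathway genes Nodal, Lefty1 and Lefty2, named after their values were seen, were not measurable.

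Of 25 genes of germ cell specification and identity 9 were measurable, beside 57.6% of all genes. All 9 were within 2-fold by their brightest probe sets, with a median of 0.12. Later germ cell genes such as Ddx4 (67.1 and 48.0) and Dazl (13.3 and 19.5) were under the floor on both arrays, as was the specification factor Prdm14 (68.2 and 18.0). These 3 genes were named after their values were seen. Tfap2c, which acts with PRDM1 in specification and is also a gene of ectoderm, read 805.7 and 1136 and was 1.41-fold higher in patUPD18. Elavl2, an RNA-binding protein gene used by germ cells and neurons, was 1.84-fold higher in matUPD18, while a second measurable probe set gave a log2 ratio of -0.13. Among the 9 genes in a set of germ cell markers, 8 were on the array and 5 measurable, 2 higher in matUPD18 and 3 in patUPD18. The 5 were Kit, Alpl, Tfap2c, Prdm1 and Ifitm3, each of which other embryonic cells can also express, with a median of -0.17. Ligands and receptors that instruct the precursors had 9 of 12 genes measurable, all within 2-fold, with a median of 0.16. Kitl, the KIT ligand, was 1.69-fold higher in matUPD18, and Cxcl12, which guides migrating germ cells, 1.60-fold higher in patUPD18. A second measurable probe set pointed the other way for both (log2 ratios -0.63 and 0.39).

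Of 19 partners and targets around LIN28 18 were measurable, beside 57.6% of all genes, and all were within 2-fold by their brightest probe sets, with a median of 0.11. Igf2bp3, an RNA-binding protein gene, had a log2 ratio of -0.08 by that rule and 1.12 by a dimmer measurable probe set. Hmga2, a chromatin protein gene repressed by let-7, read 9164 and 8118, a log2 ratio of 0.17, and 3 further measurable probe sets pointed the same way. The largest ratios belonged to the proto-oncogene Mycn, 1.56-fold higher in matUPD18, and to the chromatin factor gene Arid3a, 1.45-fold higher in patUPD18. Lin28a itself was 1.59-fold higher in patUPD18. For the SALL family and NuRD partners all 14 genes were measurable and within 2-fold by their brightest probe sets, with a median of -0.14. Dimmer measurable probe sets passed 2-fold towards matUPD18 for the NuRD remodeller gene Chd4 (log2 ratio 1.60, beside 0.13 for the brightest) and for Gatad2b (1.10 beside 0.08). Sall1 and Sall2 had log2 ratios of 0.11 and 0.43, while Sall3, the 1 SALL gene on the disomic chromosome 18, read 253.6 and 279.8, a log2 ratio of -0.14. The methyl-binding subunit gene Mbd3 was 1.97-fold higher in matUPD18 with signals of 193.0 and 98.1. It was measurable only through matUPD18, where its signal was close to the limit. Mta1 was 1.32-fold higher in patUPD18. In the PRDM family 7 of 11 genes were measurable, beside 57.6% of all genes. All 7 were within 2-fold, with a median of 0.05. Prdm6, 1 of the 7, lies on the disomic chromosome 18 (log2 ratio 0.395). Prdm10 was 1.80-fold higher in matUPD18 and Prdm4 1.22-fold higher in patUPD18. Hmga2, Igf2bp3, Chd4, Gatad2b, Sall1, Sall2, Sall3 and Prdm6 were named after their values were seen.

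**Figure D3:**
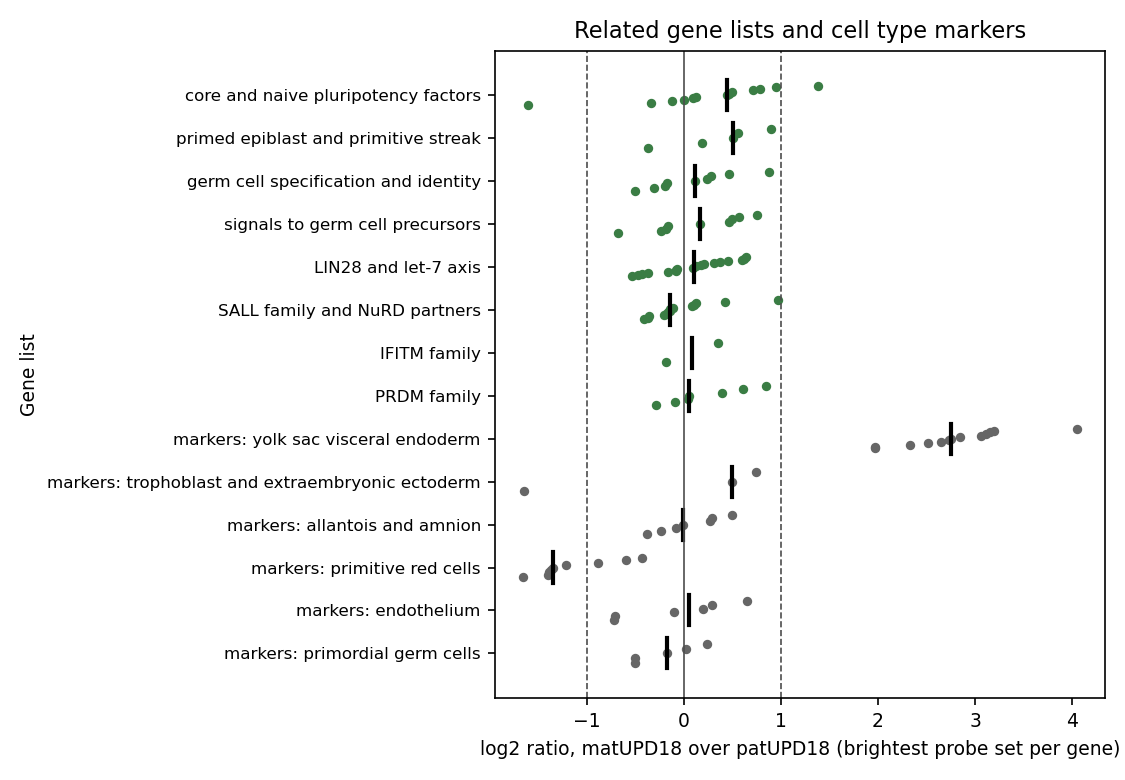
Log2 ratio of matUPD18 over patUPD18 for each measurable gene (points, brightest probe set) of 8 lists related to the members and 6 lists of cell type markers, with the list median as a black bar and dashed lines at 2-fold. The related lists have medians from -0.14 to 0.51, and the yolk sac markers (median 2.75) and red cell markers (median -1.35) lie apart.

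Of 5 lists of markers of other tissues in the same RNA, the yolk sac and red cell lists had medians past 2-fold, and the other lists had medians within 2-fold. All 13 yolk sac visceral endoderm markers were at least 2-fold higher in matUPD18, with a median log2 ratio of 2.75 and a summed signal of 36090 against 5114. However, 10 of the 13 were measurable only through the matUPD18 array. Ttr and Spink1 of this list lie on the disomic chromosome 18, so their parental copies differ between the arrays. Of 9 primitive red cell markers, 6 passed 2-fold towards patUPD18 and 3 lay within it, with a median of -1.35 and summed signals of 46290 and 71320. Gata1, 1 of the 6, was measurable only through the patUPD18 array. Both lists were chosen with their direction in these arrays known, so their counts and medians are descriptions only. Allantois and amnion markers had a median of -0.01 with 7 of 8 measurable, summing to 3438 and 3337. Endothelial markers had a median of 0.05, summing to 3335 and 2853, with 2 of the 6 measurable ones measurable only through patUPD18. Of 9 trophoblast markers 3 were measurable, with a median of 0.50 and sums of 1178 and 1341. Plac1 and Hand1 read higher in matUPD18 (log2 ratios 0.74 and 0.50), and Cdx2, which the tail bud also uses, was 3.13-fold higher in patUPD18. The markers named from these lists were chosen after their values were seen. No marker in these lists was listed at 0. The part of tissue composition in the Sall4, Lin28a, Ifitm1 and Ifitm3 ratios was not tested.

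The directions of the member ratios depended on the level to which the arrays were scaled. Under median centring, quantile and loess scaling, Sall4, Lin28a and Ifitm3 stayed higher in patUPD18 and Ifitm1 higher in matUPD18, while Prdm1 changed side around 0 (0.04, -0.03 and -0.01). The 18 hybridisation control probe sets, bacterial and phage transcripts added before hybridisation, all read lower in matUPD18, by log2 ratios between -0.88 and -0.41 (median -0.56). With the arrays scaled to these controls the median of all measurable genes moved from -0.04 to 0.52. The log2 ratio of the brighter Sall4 probe set then was -0.02, that of the dimmer one 0.35, Lin28a -0.10, Ifitm3 0.06, Prdm1 0.59 and Ifitm1 1.04. Under each of the 5 scalings Lin28a was lowest and Ifitm1 highest. Median centring and the hybridisation controls shift all ratios by the same amount, so only quantile and loess scaling could have changed this order.

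**Figure D4:**
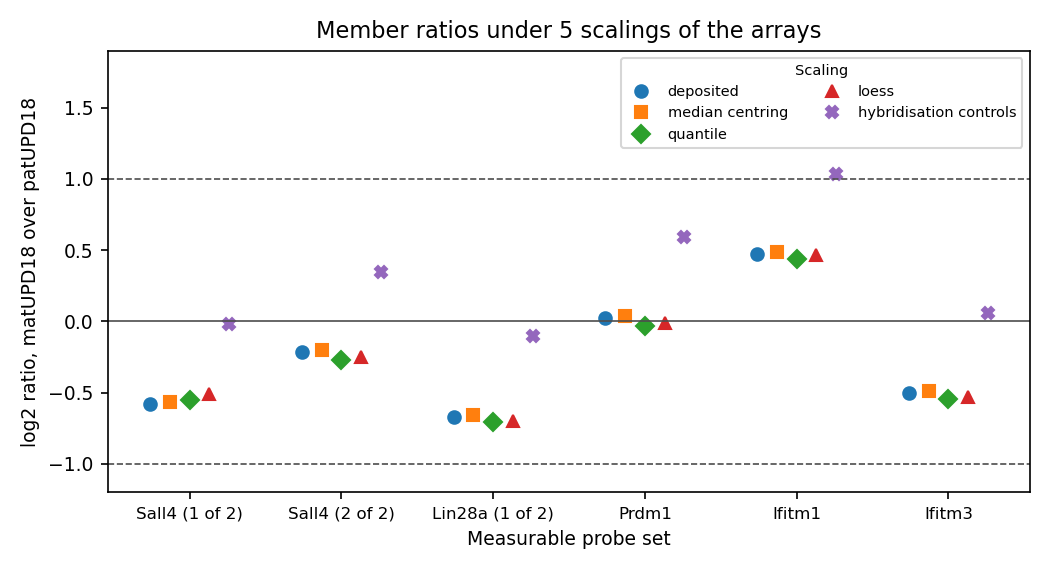
Log2 ratio of matUPD18 over patUPD18 of the 6 measurable member probe sets under the deposited scaling, median centring, quantile, loess and scaling to the hybridisation controls, with dashed lines at 2-fold. The first 4 scalings give nearly equal values, and the hybridisation controls move every point up, Ifitm1 to 1.04 and the brighter Sall4 probe set to -0.02.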

How the data were processed

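The deposited values are signal intensities, 1 per probe set and array. Per the submitters' processing notes the authors used MAS5 and GCOS, with versions not given in these sources. The 2% trimmed means of 500.003 and 500.004 show scaling of each array to a common target, which hides any shift shared by most transcripts. Total RNA was amplified before labelling, per the labels' protocols, which favours probe sets near the 3' end. Of 45101 probe sets, the platform annotation gave 34945 a single gene symbol (control probe sets left out). Symbols were updated by Entrez identifier, which matched 34741 of them to RefSeq (GRCm38.p6). Genes in lists were read by the probe set with the highest mean signal. From each related list the text names genes at least 2-fold apart (up to 4 per direction) or, where none was, the largest ratio in each direction, with exceptions stated.

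The members and lists were chosen with earlier results of these data known. Alternatives were other scalings, floors, limits, probe set rules and a 1.5-fold threshold; scaling to hybridisation controls, and dropping floor and filter together, were added after seeing the data. The ratio and count steps were tested on simulated data. Python 3.11.15, pandas 2.3.3, numpy 2.4.6 and statsmodels 0.14.6 were used.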

Additional observations from a re-analysis of the deposited data

How the results depend on the processing

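No replicate could be left out, since each genotype had 1 array. The count of member probe sets at least 2-fold higher in matUPD18 stayed at 0 under all 10 alternatives chosen at the outset, and that for patUPD18 under 9 of them. At the 1.5-fold threshold the latter was 1 (Lin28a). Some of these alternatives could not have raised either count. The changed floors could not, since both signals of each measurable member probe set lay above the 60th percentile. A stricter measurable limit and leaving out probe sets that may match other transcripts only take a subset. Without filter and floor, an alternative added later, the counts were 2 and 1 over all 14 probe sets, all from signals under the floor. Scaling to the hybridisation controls, also added later, gave 1 probe set at least 2-fold higher in matUPD18 (Ifitm1). It moved every ratio towards matUPD18, with the median of all measurable genes going from -0.04 to 0.52. The background share past 2-fold under this scaling was not counted. The median log2 ratio of the measurable member probe sets moved from -0.36 to 0.20. Under the 9 alternatives chosen at the outset that median ran from -0.50 to 0.03, with the value above 0 coming from the use of all 14 probe sets, where floored signals fill the middle. Sall4 ran from -0.58 to -0.40, Lin28a from -0.71 to -0.66, Ifitm3 from -0.54 to -0.49 and Ifitm1 from 0.44 to 0.49 under their 8 alternatives of that kind. The changed floors could not move these ratios, since both signals of each brightest probe set lay above the 60th percentile. Ifitm1 and Ifitm3 have 1 probe set each, so the probe set rules could not move them either. Dppa3 ran from -0.50 to 0.04, since a floor at the 60th percentile covers both of its signals.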
